A study of Arabidopsis thaliana with 30 samples.

Results

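The chloroplast genome of Arabidopsis thaliana carries its own ribosomal RNA, transfer RNA and protein genes, and all annotated genes with a chloroplast identifier (those beginning with ATCG) were followed here through both RNA-seq experiments of the study. There were 133 such genes among the 34262 genes of the first experiment (RNA-seq 1) and the 32832 genes of the second (RNA-seq 2), and they comprised 8 rRNA genes, 37 tRNA genes and 88 protein genes. All 133 passed the filter on low counts in both experiments. The study examined HEN2, a nuclear RNA helicase that serves the exosome in RNA decay, and SERRATE (SE), a nuclear protein of miRNA biogenesis and splicing. RNA-seq 1 compared hen2-2 with WT (Col-0) grown at 22 °C, and RNA-seq 2 compared WT, hen2-2, se-2 and the se-2 hen2-2 double mutant grown at 20 °C. All plants were 4 weeks old and grown in long days, leaf tissue was collected, and each genotype of each experiment had 3 libraries depleted of ribosomal RNA. Each single mutant was 1 T-DNA insertion line: hen2-2 is an insertion in HEN2, and se-2 produces a SE protein truncated at its C-terminus. The double mutant carried both insertions, and WT carried neither.

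Chloroplast genes are read by a plastid-encoded RNA polymerase, whose core subunits come from the rpo genes of the chloroplast itself, and by a nuclear-encoded polymerase of phage type. Many of them lie in operons that are transcribed as long precursors and then cut into smaller RNAs by nuclear-encoded ribonucleases and RNA-binding proteins. In leaves their products are the core subunits of the photosystems, the cytochrome b6f complex, the ATP synthase, the NDH complex, the large subunit of Rubisco, and part of the gene expression machinery of the organelle. HEN2 and SE are both nuclear proteins, so the RNA measured here lies in another compartment than these proteins.

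The files give identifiers only. Of the 133 identifiers, 117 were named and 16 are given by identifier. Matching to the annotation of the TAIR10.1 assembly named 80 by gene length alone and 36 by length and order. The name of rps12 (ATCG00905) came from the gene description in the study's supplement. The named identifiers included 14 pairs of the same symbol and length, which are the copies of the inverted repeat. Reads of such copies cannot be assigned, so that each copy is uncertain on its own.

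The targeted genes behaved as the genotypes were labelled. HEN2 was lower in hen2-2 (log2 fold change -1.52 ± 0.14 (SE), adjusted p = 0.0129 in RNA-seq 1, and -1.43 ± 0.25, adjusted p = 0.0379 in RNA-seq 2) and in the double mutant (-1.21 ± 0.25, adjusted p = 0.0262). SE showed a log2 fold change of -1.16 ± 0.18 (adjusted p = 0.0235) for se-2 and of -1.05 ± 0.18 (adjusted p = 0.0125) for the double mutant, all by the quasi-likelihood test of edgeR, adjusted over all genes after Benjamini and Hochberg, as are all adjusted p values of single genes here. Leaf markers were abundant, with LHCB1.3, a light-harvesting protein of photosystem II, at 1576 to 2716 CPM (counts scaled to 1000000 per library) in the first and 1665 to 3289 CPM in the second experiment. Other markers varied more. LHCB2.1, of the same family, was at 64.4 to 130.3 CPM in replicate 1 of the 4 genotypes of RNA-seq 2 and at 340.6 to 738 CPM in the other 8 libraries, and the root marker PYK10 was at 0.0599 to 0.684 and 2.94 to 19.99 CPM in the same libraries. In the double mutant LHCB1.3 (1665 to 1921 CPM) and RBCS1A, a small subunit of Rubisco (148 to 156 CPM), were below every other library of RNA-seq 2 (from 2074 and 175.6 CPM upwards). The other 2 leaf markers overlapped. RBCS2B, also a small subunit of Rubisco, was at 75.5, 49.4 and 50.2 CPM in the double mutant and at 54.75 to 120.9 CPM elsewhere in RNA-seq 2. LHCB2.1 was at 65.8, 456 and 479 CPM in the double mutant, inside the range of the other genotypes. The part of these differences in the chloroplast values was not tested. The flower markers AP3, PI, AG and SEP3 stayed between 0 and 0.484 CPM in every library.

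Chloroplast genes took most of every library. In RNA-seq 1, where libraries held 62.6 to 105.5 M counts (M, 1000000), their share was 81.5, 79.4 and 79.1% in WT replicates 1 to 3 and 81.4, 79.6 and 77.6% in hen2-2. In RNA-seq 2 the libraries fell into 2 depth classes, of 120.6 to 156.6 M and of 47.7 to 58.1 M counts, and the chloroplast share followed the class. It was 68.0 to 72.2% in the 6 libraries over 100 M counts, which were replicates 1 and 2 of WT and hen2-2 and replicate 1 of se-2 and se-2 hen2-2, and 50.6 to 57.8% in the other 6. The classes did not overlap. The genotypes held unequal numbers of deep libraries, so a genotype mean over the 3 libraries also carries this difference. Within a class each genotype had only 1 or 2 libraries. The difference between se-2 hen2-2 and WT in chloroplast share was -5.50 percentage points over the 3 libraries (two-sided exact permutation p = 0.7, n = 3 per genotype), 0.311 points within the deep class and 0.683 points within the other. For se-2 and WT it was -6.75 points (exact p = 0.4), -1.65 and -0.197 within the classes. For hen2-2 and WT it was 2.71 points (exact p = 0.6), 1.02 and 6.07 within the classes. With 3 libraries against 3 this test cannot give a p below 0.1. The protein genes alone, per nuclear count, gave 0.963, 0.813 and 0.406 in WT and 0.890, 0.373 and 0.447 in se-2 hen2-2, again set apart by depth class and not by genotype.

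**Figure D1:**
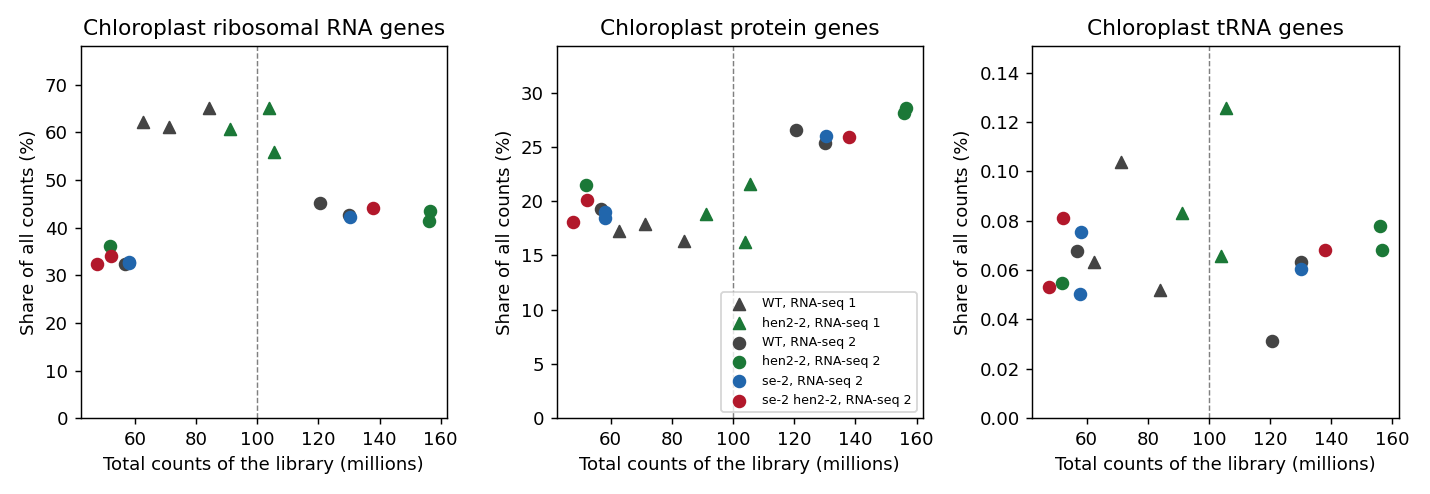
Share of all counts (%) taken by chloroplast rRNA, protein and tRNA genes (panels, left to right) against the total counts of the library in M. Each point is a library, triangles are RNA-seq 1 and circles RNA-seq 2, colours are genotypes, and the dashed line marks 100 M counts. In RNA-seq 2 the 6 deep libraries lie between 41.4 and 45.2% for rRNA and between 25.3 and 28.6% for protein genes, above the 6 others.

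Because of this, levels are given on 2 scales. The library scale is CPM after TMM normalization over all genes. The within-chloroplast scale (chloroplast CPM) is counts scaled to 1000000 chloroplast counts, with the rRNA genes left out of that total because rRNA was depleted in the laboratory and again from the reads. It shows how the chloroplast RNA is divided among its genes, whatever part of the library it takes. The test on this scale was still fitted to all genes, most of them nuclear. A nuclear gene divided by the chloroplast total also follows the chloroplast share of the library. Its spread entered the fit and the adjustment, and what this did to the chloroplast calls was not tested. Shares of all genes on this scale are therefore no background for the division of chloroplast RNA. On the library scale, fewer chloroplasts, fewer cells that hold them and less RNA per chloroplast cannot be told apart.

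The levels of the protein genes spanned a wide range within WT. Per kilobase of gene, psbA, which encodes the D1 protein of the photosystem II reaction centre, reached 406748 chloroplast CPM in RNA-seq 2, rbcL, the large subunit of Rubisco, reached 163357 and psaJ, a small photosystem I subunit, 29119. The lowest were rps16, a protein of the small ribosomal subunit, at 106, the shorter ycf1 copy (ATCG01000) at 143 and ycf2 (ATCG00860) at 158. By function, over the named genes only, the median per kilobase was 18163 for 5 photosystem I genes, 11403 for 15 photosystem II genes, 9148 for 6 ATP synthase genes, 6616 for 6 cytochrome b6f genes and 2948 for 9 NDH genes. The genes of the expression machinery stood lower, with 1569 for 11 proteins of the large ribosomal subunit, 1377 for 13 of the small subunit and 599.8 for the 4 RNA polymerase genes. The single genes psbA and rbcL together decide most of the within-chloroplast denominator.

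Replicates differed most for the structural RNAs. The SD of the log2 level within a genotype, on the within-chloroplast scale, had a median of 0.59 over the rRNA genes, 0.48 over the tRNA genes and 0.33 over the protein genes in RNA-seq 2, and of 0.42, 0.35 and 0.23 in RNA-seq 1. The tRNA gene ATCG00030 varied most, with an SD of 2.24 in RNA-seq 2. Its level was 37.4, 888 and 1106 chloroplast CPM in WT replicates 1 to 3, 1031, 1041 and 96.1 in hen2-2, 1004, 1225 and 118 for se-2, and 1120, 77.3 and 1369 for the double mutant. A single library of each genotype was low and the other 8 libraries were high, so the gene separated libraries and not genotypes. In RNA-seq 1 it stayed between 27.6 and 55.9 in all 6 libraries. The next largest spreads were those of trnH (SD 1.04) and trnG (ATCG00310), which read tRNAs for histidine and glycine.

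The main question of RNA-seq 2 for these genes is what the hen2-2 and se-2 mutations change together. On the library scale, 14 of the 133 genes (10.5%) passed the test in the double mutant as compared to WT, 1 higher and 13 lower, against 2.38% of all 19454 genes tested (1.71% higher, 0.668% lower). The gene that rose was psbN, which encodes a small protein needed for the assembly of photosystem II. The genes that fell included subunits of the plastid RNA polymerase (rpoA, rpoB, rpoC2), proteins of the small ribosomal subunit (rps2 and rps14 among them), subunits of the NDH complex, which carries electrons around photosystem I (ndhA, ndhG, ndhH, ndhI), and ATCG00360 and ATCG01050, whose names were not matched. All 14 were protein genes. Across the whole set, 76 of the 88 protein genes had a negative log2 fold change, with a median of -0.42, while 49.3% of all genes tested were negative with a median of 0.01. Of the tRNA genes 27 of 37 were positive, with a median of 0.36.

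This set of calls rests on the spread shared by the 4 genotypes. Fitted on the 6 WT and se-2 hen2-2 libraries alone, 1 of the 14 remained, psbN, with 0.879% of all genes called, and with DESeq2 the count was 35, where 6.19% of all genes were called. Without a single library the edgeR count was 5 and 4 (without WT replicate 2 or se-2 hen2-2 replicate 2) to 11 (without WT replicate 3 or se-2 hen2-2 replicate 3), where 0.824 to 2.39% of all genes were called. A term for the 2 depth classes, added after the data were seen, gave 34 genes, 3 higher and 31 lower, against 4.16% of all genes.

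**Figure D2:**
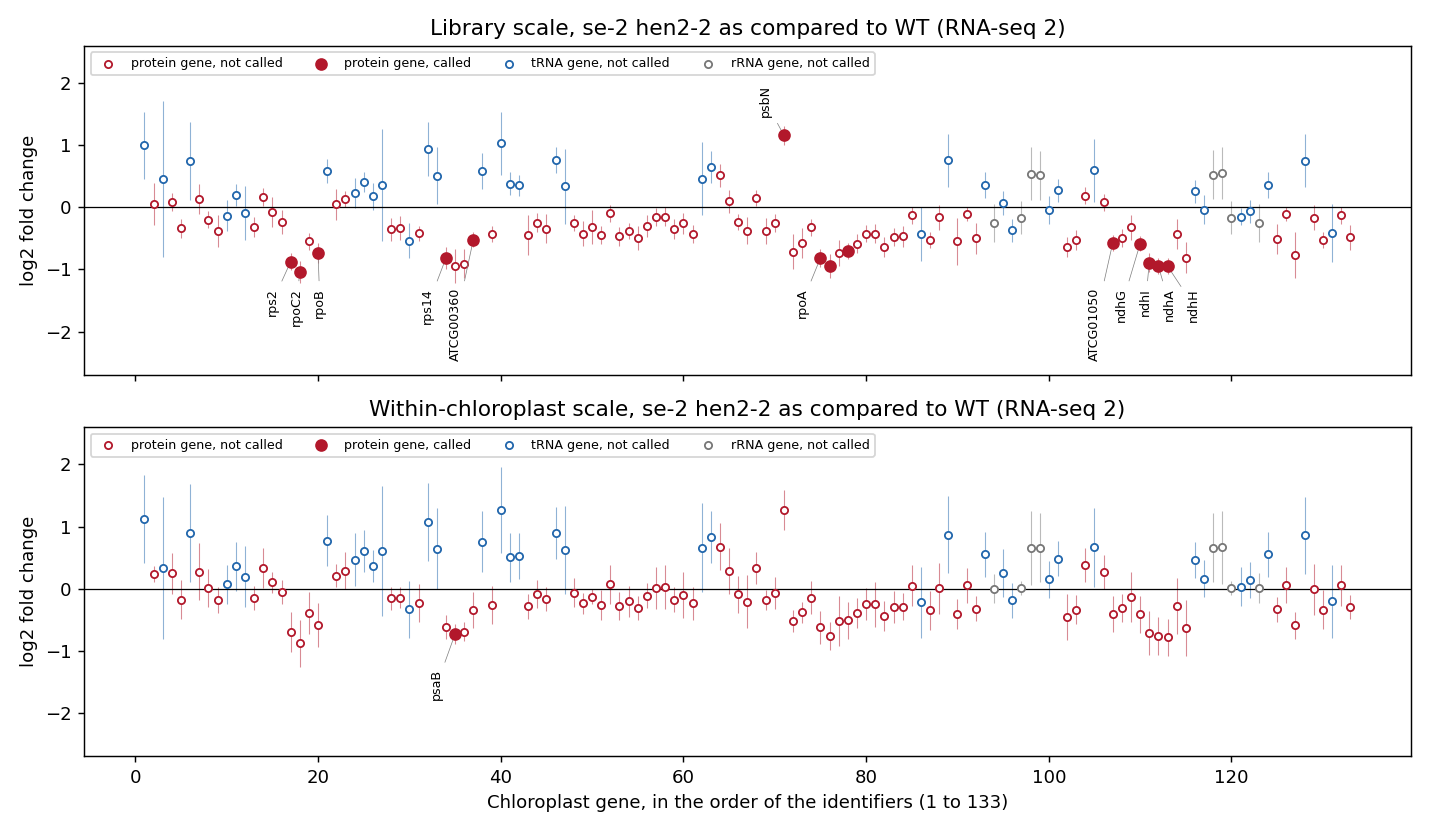
Log2 fold change of each of the 133 chloroplast genes in the double mutant as compared to WT (RNA-seq 2), with bars of 1 SE, in the order of the identifiers along the genome, on the library scale (upper panel) and the within-chloroplast scale (lower panel). Red is protein, blue tRNA and grey rRNA genes, and filled points passed the test, with the genes named in the text labelled. The 13 lower genes lie in 4 stretches of the genome, psbN (1.16) is the single filled point above 0, and on the lower panel only psaB (-0.73) is filled.

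The 13 genes that fell were grouped by position. In the order of the identifiers, rps2, rpoC2 and rpoB lay at positions 17, 18 and 20 of 133, with rpoC1 between them. Further on came rps14 and ATCG00360 at positions 34 and 37 around psaB and psaA, rpoA at position 75, and ATCG01050, ndhG, ndhI, ndhA and ndhH at positions 107 and 110 to 113. Those named here that had a matched annotation were on the minus strand, as was psbN, the gene that rose. The share of minus-strand genes over all members was not computed, so a link to strand was not tested. Neighbours inside these stretches that did not pass the test also had negative values, -0.55 ± 0.14 for rpoC1 (adjusted p = 0.0728), -0.73 ± 0.21 for rpl36 (0.108), -0.91 ± 0.23 for psaA (0.0721), -0.94 ± 0.27 for psaB (0.111), -0.50 ± 0.15 for psaC (0.126) and -0.32 ± 0.20 for ndhE (0.513). Most protein genes anywhere in the genome were negative in this comparison, so these signs do not mark the stretches. Grouping by position was not tested.

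The 4 RNA polymerase genes encode the core of the plastid-encoded polymerase. On the library scale rpoC2, for the beta'' subunit, was at 391, 443 and 472 CPM in WT, 354, 429 and 469.8 CPM in hen2-2, 324, 391 and 411 CPM for se-2, and 179, 202 and 253 CPM for the double mutant. All 3 double mutant libraries were below every other library, and the single mutants overlapped WT. The log2 fold change to WT was -1.04 ± 0.17 (adjusted p = 0.00979). The alpha subunit gene rpoA was at 232, 233 and 194 CPM in WT and 123, 110.3 and 141 CPM in se-2 hen2-2 (-0.82 ± 0.14, adjusted p = 0.0131). The beta subunit gene rpoB was at 275, 359 and 334 CPM in WT and 184, 183 and 212 CPM in se-2 hen2-2 (-0.74 ± 0.16, adjusted p = 0.0334). Neither gene had a double mutant library inside the WT range.

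In the fit without a depth term none of the 4 rpo genes passed the test when scaled within the chloroplast. There rpoC2 was at 1231, 1771 and 2639 chloroplast CPM in WT and 621, 1095 and 1354 in se-2 hen2-2, where 1 double mutant library lay above the lowest WT library, and the log2 fold change was -0.88 ± 0.38 (adjusted p = 0.465). In both genotypes the deep library or libraries were the low ones. Within the classes the difference was -1.25 (deep, with 1 double mutant library) and -1.12 (with 1 WT library). In the fit with a term for depth class rpoC2 fell by 1.18 on this scale.

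Ribosomal and NDH genes were mostly negative on the library scale, and those that passed were of the small subunit and the NDH complex. Of the 13 named small subunit genes 13 were negative and 4 fell, of the 11 named large subunit genes 9 were negative and 0 fell in this comparison, and of the 9 named NDH genes 9 were negative and 4 fell. Genes without a matched name, such as ATCG01050, were not assigned to a group, so these counts can be incomplete. The level of rps2 was 141, 142 and 137 CPM in WT, 136, 141 and 152 CPM in hen2-2, 109, 114 and 116 CPM for se-2, and 71.2, 67.6 and 89.4 CPM for the double mutant (-0.88 ± 0.14 to WT, adjusted p = 0.00769). That of ndhH, a subunit of the NDH arm that faces the stroma, was 265, 288 and 276 CPM in WT, 259, 253 and 257 CPM in hen2-2, 198, 206 and 194 CPM for se-2, and 141, 127 and 163 CPM for the double mutant (-0.95 ± 0.13, adjusted p = 0.00371). For both genes the se-2 libraries lay between WT and the double mutant without touching either, although the difference of se-2 to WT did not pass the test (-0.31 ± 0.14, adjusted p = 0.686, and -0.47 ± 0.13, adjusted p = 0.238). The neighbour ndhA, a membrane subunit, was at 919, 933 and 911 CPM in WT and 437, 445 and 553 CPM in se-2 hen2-2 (-0.95 ± 0.13, adjusted p = 0.00378).

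**Figure D3:**
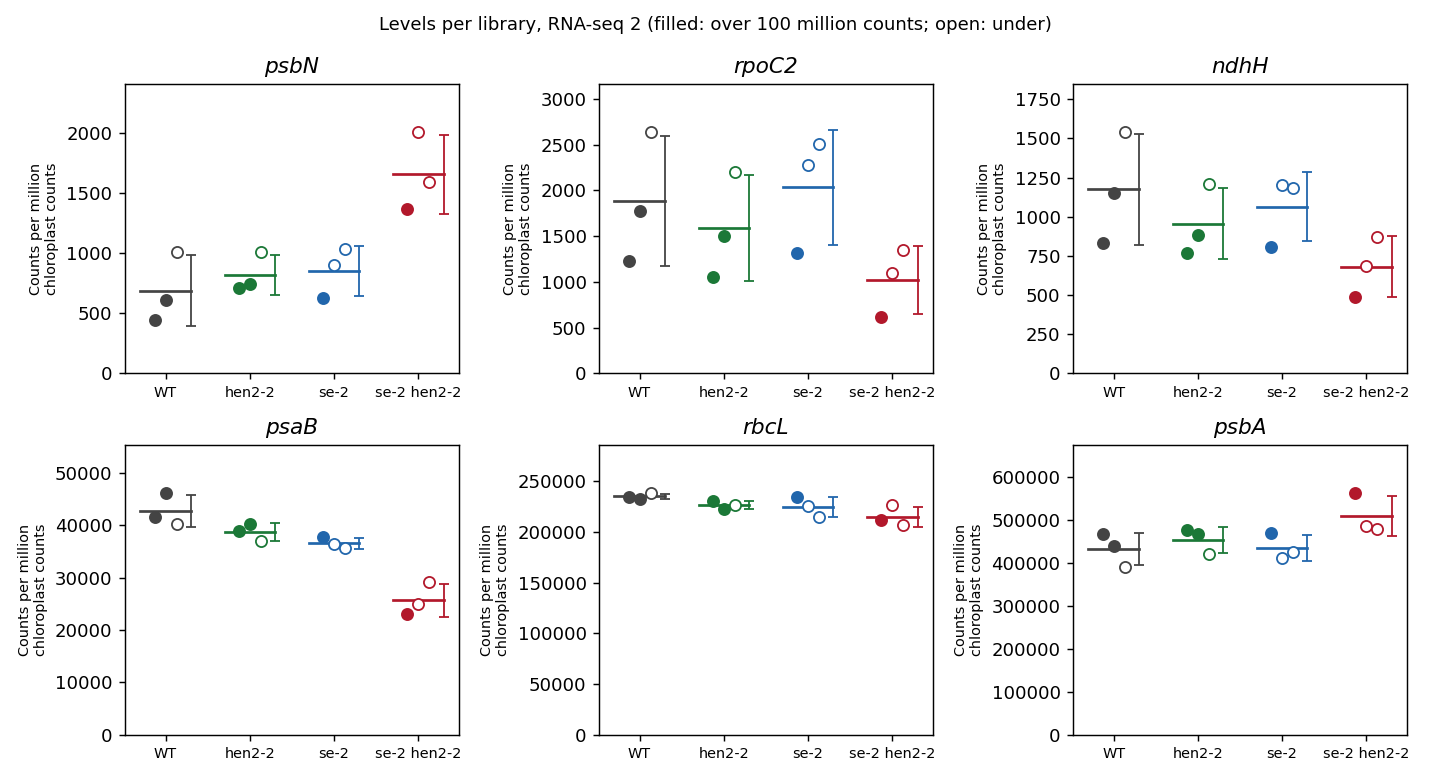
Level of psbN, rpoC2, ndhH, psaB, rbcL and psbA in the 12 libraries of RNA-seq 2, in chloroplast CPM (axes from 0). Each point is a library, filled over and open under 100 M counts, the line is the mean and the bar 1 SD of 3 libraries. The psbN points of se-2 hen2-2 (1364 to 2007) are above all others, its psaB points (22966 to 29068) below all others, and rpoC2 and ndhH vary with depth class inside every genotype.

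The gene psbN lies in the psbB operon but points the other way. The operon runs psbB, psbT, psbH, petB, petD on the plus strand, and psbN sits on the minus strand between psbT and psbH. In the TAIR10.1 assembly psbN is at Pltd:74249-74380, which is 65 bases from the end of psbT (Pltd:74082-74183) and 104 bases from the start of psbH (Pltd:74485-74706). The first bases of the 3 reading frames, each read 5′ to 3′ on its own strand with the start codon in capitals, are shown because they are the genes whose reads have to be kept apart. They are credited to RefSeq.
psbT, plus strand: ATGgaagcattggtttatacatttctctta
psbN, minus strand: ATGgaaacagcaaccctagtcgccatcttt
psbH, plus strand: ATGgctacacaaactgttgaagatagttct

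The level of psbN was 141, 153 and 181 CPM in WT, 237, 212 and 214 CPM in hen2-2, 154, 155 and 169.8 CPM for se-2, and 393, 370.4 and 297 CPM for the double mutant. The double mutant libraries were the highest 3 of the 12, those of hen2-2 were above WT and se-2 without overlap, and se-2 overlapped WT. The log2 fold change was 1.16 ± 0.15 to WT (adjusted p = 0.0026), 1.15 ± 0.15 to se-2 (adjusted p = 0.00518), 0.68 ± 0.15 to hen2-2 (adjusted p = 0.0848), and in hen2-2 as compared to WT it was 0.48 ± 0.15 (adjusted p = 0.445). The call against WT and that against se-2 were each kept in 15 of 15 planned and added alternatives on the library scale, with adjusted p up to 0.0396 and 0.0494. On the within-chloroplast scale psbN did not pass the test (1.26 ± 0.32 to WT, adjusted p = 0.108) although its libraries did not overlap, at 443, 611 and 1011 in WT and 1364, 2007 and 1593 in se-2 hen2-2. Within the depth classes that difference was 1.39 (deep, with 1 double mutant library) and 0.82 (with 1 WT library).

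The genes on the opposite strand did not rise with it. On the library scale psbT was at 328, 256 and 256 CPM in WT and 240.3, 219 and 244 CPM in se-2 hen2-2 (-0.26 ± 0.14, adjusted p = 0.454), and psbH at 788, 649.7 and 439 CPM in WT and 485, 302 and 359 CPM in se-2 hen2-2 (-0.71 ± 0.28, adjusted p = 0.247). The values of psbB (-0.38 ± 0.21, adjusted p = 0.452) and petB (-0.58 ± 0.25, adjusted p = 0.305) were negative too. The library kit keeps strand, but whether the counting used it is not given in the sources used here. Without it, reads of psbN and reads antisense to its gene from the operon precursor cannot be told apart. In RNA-seq 1 psbN was at 90.7, 119.6 and 134 CPM in WT and 102, 127 and 137 CPM in hen2-2, which overlapped (0.09 ± 0.21, adjusted p = 0.912).

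Scaled within the chloroplast, where nuclear genes shared the fit, 1 of 133 genes passed the test in the double mutant as compared to WT, against 0.776% of all genes. This was psaB, which with psaA encodes the reaction centre of photosystem I. It was at 41631, 46055 and 40202 chloroplast CPM in WT, 38848, 40262 and 36950 in hen2-2, 37671, 36434 and 35547 for se-2, and 22966, 24975 and 29068 for the double mutant. The double mutant libraries were below the other 9 by more than the spread of any genotype, and the log2 fold change to WT was -0.73 ± 0.16 (adjusted p = 0.0471). Its partner psaA was at 39564, 42756 and 40443 in WT and 21142, 25710 and 29182 in se-2 hen2-2, again without overlap (-0.69 ± 0.16, adjusted p = 0.0774). The call of psaB was lost in the fit to the 2 genotypes alone and on leaving out WT replicate 1, 2 or 3 or any double mutant library (adjusted p from 0.0714 to 0.264), and on scaling by TMM over the chloroplast protein genes (-0.52, adjusted p = 0.147) or with psbA left out of the total (-0.53, adjusted p = 0.0637). With the term for depth class 33 genes passed on this scale (3.15% of all genes), 3 higher, which were psbN (1.12), psaJ (0.37) and psbA (0.30), and 30 lower, among them the 4 rpo genes. Scaled instead by TMM over the chloroplast protein genes, without that term, 13 genes passed, 11 higher and 2 lower (6.55% of all genes). The main total without that term gave only psaB, lower, so the calls depended on the total used.

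The 2 most abundant mRNAs, psbA and rbcL, make up most of the within-chloroplast total, which limits how far their values can move on that scale. On the within-chloroplast scale psbA was at 466351, 438349 and 391198 in WT and 561320, 486446 and 477678 in se-2 hen2-2 (0.24 ± 0.13, adjusted p = 0.643). The level of rbcL was 234828, 232744 and 238129 in WT and 211857, 226186 and 207133 in se-2 hen2-2 (-0.13 ± 0.12, adjusted p = 0.835). The SD of its log2 level within genotypes was 0.048, so the fitted error was wider than its own spread. The libraries did not overlap for either gene, with psbA above and rbcL below WT. Several other representatives of the functional groups had values that did not pass the test on the library scale: atpA of the ATP synthase had -0.32 (adjusted p = 0.397), accD of fatty acid synthesis -0.44 (0.168), the protease subunit clpP 0.15 (0.646), rps12 -0.50 (0.382), the 2 copies of rpl2 -0.47 (0.204) and -0.48 (0.302), ycf2 -0.53 (0.0564) and -0.52 (0.0614), and ycf1, a part of the protein import machinery, -0.64 (0.0588) and -0.81 (0.131).

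Summed by function, the share of photosystem I in the chloroplast protein counts was lowest in the double mutant. It was 8.66, 9.49 and 9.02% in WT, 8.10, 8.40 and 8.37% in hen2-2, 7.81, 8.42 and 8.23% for se-2, and 5.01, 6.09 and 6.88% for the double mutant. Both single mutants were below WT and the double mutant was below all of them without overlap. The mean was 9.06 ± 0.42% (SD, n = 3) in WT and 5.99 ± 0.94% in se-2 hen2-2, a difference of -3.06 percentage points (exact permutation p = 0.1, the smallest this design allows, and 0.738 after adjustment over 96 such tests). The share of photosystem II, most of it psbA, was 53.8 ± 2.9% in WT and 60.5 ± 3.4% in se-2 hen2-2 (difference 6.70 points, exact p = 0.1, adjusted 0.738), and that of Rubisco 23.6 ± 0.3% and 21.6 ± 1.0% (difference -2.01 points, exact p = 0.1, adjusted 0.738), both without overlap. The 4 RNA polymerase genes took 0.391, 0.560 and 0.765% in WT and 0.252, 0.390 and 0.472% in se-2 hen2-2, which overlapped (exact p = 0.2). These shares add up to a fixed total, so a larger share of psbA lowers the others.

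**Figure D4:**
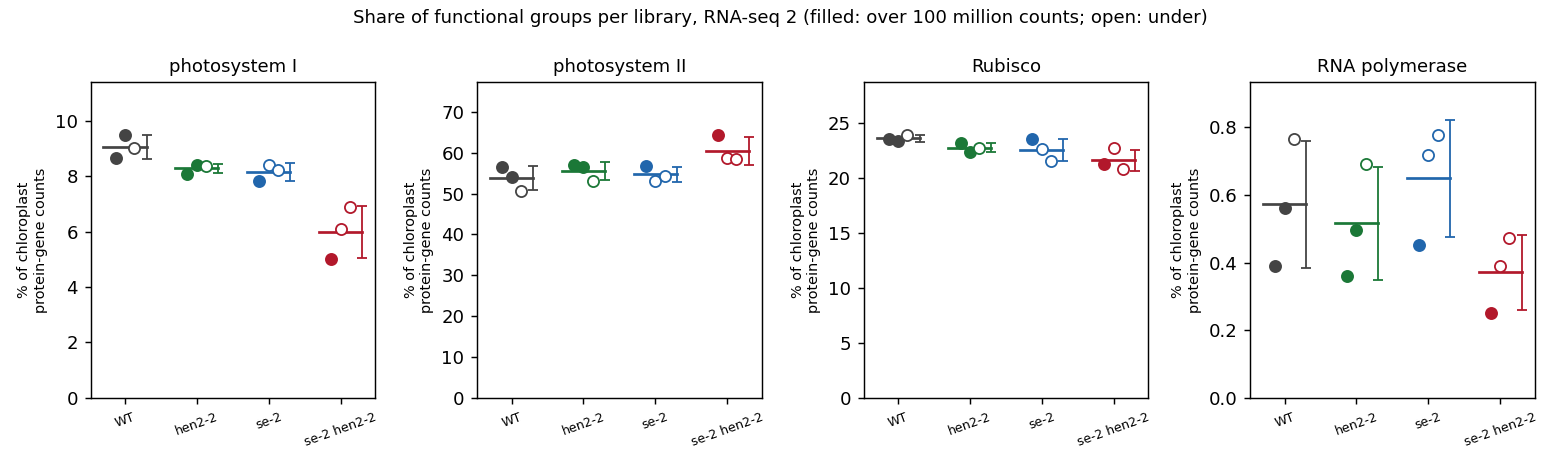
Share (%) of photosystem I, photosystem II, Rubisco and RNA polymerase genes in the counts of all chloroplast protein genes, per library of RNA-seq 2 (axes from 0). Points are libraries, filled over and open under 100 M counts, the line is the mean and the bar 1 SD of 3 libraries. The photosystem I share of se-2 hen2-2 (5.01 to 6.88%) lies below all other libraries (7.81 to 9.49%).

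The comparisons of se-2 hen2-2 with the single mutants share the double mutant libraries with the one above and are not independent of it. Against se-2, which isolates the loss of HEN2 in the se-2 background, 1 of 133 genes passed on the library scale, psbN, against 0.884% of all genes (0.725% higher). The replicate numbers pair the libraries of these genotypes over all genes, but not evenly over the chloroplast genes, where the deviations of same-numbered libraries correlated at 0.877, 0.106 and -0.125. With the number as a block 14 genes passed (3.73% of all genes). These were psbN (1.15 ± 0.14, adjusted p = 0.00088) and 13 lower genes, among them the 4 rpo genes, with rpoC2 at -0.83 ± 0.09 (adjusted p = 0.00057), rpoA at -0.68 (0.0093), rpoB at -0.56 (0.011) and rpoC1 at -0.48 (0.019). On the within-chloroplast scale 0 genes passed without the block (13 at an unadjusted p under 0.05, 1 by DESeq2, 0.0822% of all genes) and 22 with it (3.66% of all genes), again psbN higher and 21 lower. In the 3 pairs of libraries 75 of the 88 protein genes were lower in the double mutant in every pair on that scale. Of all genes, most of them nuclear and set against the chloroplast total, 30.4% were. On the library scale it was 53 of 88, against 18.8% of all genes.

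Against hen2-2, which isolates the se-2 mutation in the hen2-2 background, 10 genes fell and 0 rose on the library scale, against 0.529% of all genes (0.149% lower). They included rps2 (-0.91 ± 0.14, adjusted p = 0.0174), ndhH (-0.84 ± 0.13, 0.0174), ndhA (-0.84 ± 0.13, 0.0182), rpoA (-0.87 ± 0.14, 0.0251), rpoC2 (-0.98 ± 0.17, 0.0321), ndhG, ndhI, rpl22 and ATCG01050. Of the 88 protein genes 86 were negative, with a median of -0.53, as compared to 0.01 over all genes tested. These calls were the least stable: 0 remained in the fit to the 2 genotypes alone and on leaving out any hen2-2 library or se-2 hen2-2 replicate 2, 3 without replicate 1 of the double mutant, and 9 without its replicate 3. No gene passed on the within-chloroplast scale (7 at an unadjusted p under 0.05, 0 by DESeq2, 0.344% of all genes).

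The single mutants differed little from WT in RNA-seq 2. In hen2-2 no chloroplast gene passed the edgeR test on the library scale (9 of 133 at an unadjusted p under 0.05, 0 by DESeq2, 0.308% of all genes called) or within the chloroplast (0 unadjusted, 0.00514% of all genes). The signs leaned upward on the library scale, where 83 of 88 protein genes (median 0.12) and 35 of 37 tRNA genes (median 0.26) were positive, against 49.7% of all genes. On the within-chloroplast scale 27 of the 88 protein genes were positive (median -0.05). Of all genes, most of them nuclear and set against the chloroplast total, 30.3% were positive (median -0.19). In se-2, 0 genes passed on either scale (13 and 0 at an unadjusted p under 0.05, 4 and 0 by DESeq2, 0.324% and 0.0822% of all genes called), and 78 of 88 protein genes were negative on the library scale (median -0.21, where 50.1% of all genes were negative). Within the chloroplast 71 of 88 were positive (median 0.14). Of all genes 78.2% were positive on that scale (median 0.33), as compared to 49.9% on the library scale. Both all-gene shares on the within-chloroplast scale follow the chloroplast share of the libraries and are no background for the members. The hen2-2 effect in se-2 plants minus that in WT plants, tested as an interaction, passed for 0 genes on either scale (22 and 0 at an unadjusted p under 0.05, 4 and 0 by DESeq2, 0.0154% and 0% of all genes called).

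RNA-seq 1 gave a second comparison of hen2-2 with WT. Without regard to the pairing of libraries, 0 of 133 genes passed on the library scale (7 at an unadjusted p under 0.05, 2 by DESeq2, 1.35% of all genes) and 0 within the chloroplast (8 unadjusted, 1 by DESeq2, 0.702% of all genes). The replicate numbers pair the libraries, and with the number as a block 42 genes passed on the library scale, 41 higher and 1 lower, where 12.3% of all genes passed (7.08% higher, 5.19% lower). The 41 were 25 protein genes, 14 tRNA genes and both copies of the 5S rRNA gene. They were mostly short, with a median length of 123 nt as compared to 411 nt for the other 92 genes, and 33 of the 41 were under 300 nt. All hen2-2 libraries were deeper than all WT libraries in this experiment (91.3 to 105.5 and 62.6 to 84.1 M counts), and in it the effects of depth and of genotype cannot be told apart.

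Among the tRNA genes that rose with the block, trnC was at 10.4, 10.5 and 13.6 CPM in WT replicates 1 to 3 and 16.5, 16.8 and 22.9 CPM in hen2-2 (0.70 ± 0.08, adjusted p = 0.00378). Every hen2-2 library was above every WT library. Of the protein genes, petL of the cytochrome b6f complex was at 24.6, 31.4 and 34.0 CPM in WT and 37.3, 52.6 and 68.5 CPM in hen2-2 (0.78 ± 0.11, adjusted p = 0.00664). For atpH, the ring subunit of the ATP synthase, the values were 791, 889 and 1366 CPM in WT and 1319, 1656 and 1967 CPM in hen2-2 (0.72 ± 0.12, adjusted p = 0.0142). Those of petL did not overlap, and those of atpH overlapped but were higher in hen2-2 in each of the 3 pairs. In RNA-seq 2 hen2-2 as compared to WT had no such call with the block (0 of 133 on both scales, 0.92% and 0.447% of all genes). The experiments differed in depth by genotype, in growth temperature and in how counts were made. What sets their calls apart was not tested.

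The gene that fell in RNA-seq 1 was psbF, for a subunit of cytochrome b559 in photosystem II. It was at 36.1, 37.7 and 62.4 CPM in WT and 29.1, 23.2 and 25.4 CPM in hen2-2, without overlap (-0.77 ± 0.18 with the block, adjusted p = 0.037). Its operon neighbours psbE, psbL and psbJ did not fall with it. On the within-chloroplast scale psbL was at 1444, 1508 and 1668 in WT and 1784, 1867 and 2226 in hen2-2, while psbF was at 231, 230.1 and 325 in WT and 173, 118 and 120.5 in hen2-2. In RNA-seq 2 psbF had a log2 fold change of 0.13 ± 0.15 (adjusted p = 1) in hen2-2 as compared to WT on the library scale.

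**Figure D5:**
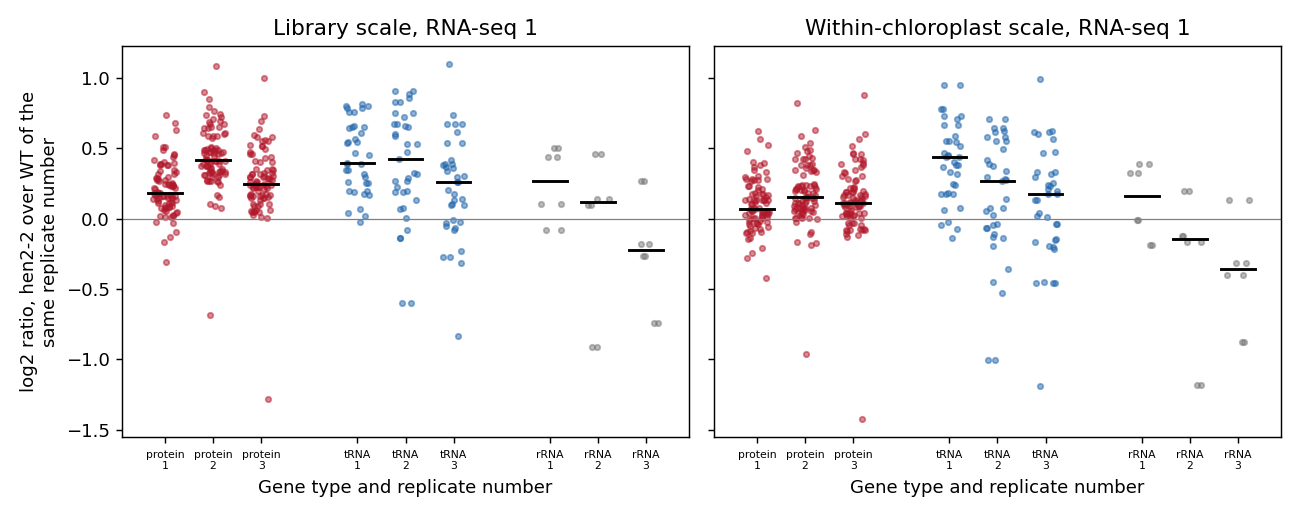
Log2 ratio of hen2-2 over the WT library of the same replicate number in RNA-seq 1, for protein (red), tRNA (blue) and rRNA genes (grey), on the library scale (left) and the within-chloroplast scale (right). Each point is a gene, black bars are medians. On the library scale the protein medians are 0.18, 0.42 and 0.25 and those of the tRNA genes 0.39, 0.43 and 0.26, all above 0, while the rRNA medians are 0.27, 0.12 and -0.22.

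Across all members of RNA-seq 1, 108 of 133 genes were higher in hen2-2 in each of the 3 pairs on the library scale (82 of 88 protein, 24 of 37 tRNA and 2 of 8 rRNA genes), as compared to 27.9% of all genes tested. Within the chloroplast it was 77 of 133, with 26 genes higher and 3 lower in the blocked test. Of all genes, most of them nuclear and set against the chloroplast total, 14.8% were higher in all pairs and 18.5% passed. The 3 lower genes were psbF and both copies of the 4.5S rRNA gene.

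The rRNA genes took most of the chloroplast counts even after depletion, between 32.3 and 65.1% of all counts, and 23S alone held 87.3 to 96.4% of the rRNA counts. No rRNA gene passed the test in any comparison without the block. In the double mutant as compared to WT the log2 fold change on the library scale was -0.17 (adjusted p = 0.854 and 0.851 for the 2 copies) for 23S, -0.26 and -0.25 (0.776 and 0.785) for 16S, 0.54 and 0.55 (0.625 and 0.622) for 4.5S and 0.52 (0.619 and 0.616) for 5S. The small rRNAs varied with depth. The first copy of 5S (ATCG00970) was at 11662, 11225 and 28551 chloroplast CPM in WT, 8703, 10311 and 30307 in hen2-2, 9589, 39036 and 27428 for se-2, and 15407, 35741 and 30082 for the double mutant. The 6 deep libraries were below the other 6 whatever the genotype, and 4.5S behaved likewise. These counts are what 2 rounds of rRNA removal left, so they do not measure the rRNA of the plants.

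The tRNA genes held 0.0314 to 0.126% of all counts. Per 1000 counts of protein genes there were 3.17 to 5.83 tRNA counts in the first experiment and 1.18 to 4.03 in the second, and the genotypes overlapped in both experiments. In WT of RNA-seq 2 the highest levels were those of ATCG00030, ATCG00400 and ATCG00450. In the double mutant as compared to WT the library scale gave 0.38 (adjusted p = 0.363) for ATCG00400 and 0.77 (adjusted p = 0.0838) for ATCG00450. The larger values for trnH (1.0 ± 0.54, adjusted p = 0.433) and trnG (0.94 ± 0.44, adjusted p = 0.349) came with a wide spread between libraries. Mature tRNAs are short for a library of this kind, and whether the counts come from precursors or from mature tRNA was not tested.

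The nuclear genes for plastid transcription and RNA decay were read from the same fits. Of 28 such genes, which encode sigma factors, phage-type polymerases, ribonucleases, RNA-binding proteins and polymerase-associated proteins, 28 were tested and 0 passed in any of the comparisons. In the double mutant as compared to WT 25 of the 28 were negative, with a median of -0.42 as compared to 0.01 over all genes, and the lowest adjusted p was that of CSP41a, an RNA-binding protein of the chloroplast (-0.75 ± 0.18, adjusted p = 0.0511). Their median in hen2-2 was 0.06 in RNA-seq 1 and -0.03 in RNA-seq 2, and in se-2 it was -0.10. The leaf marker LHCB1.3 had -0.74 (adjusted p = 0.0673) in the double mutant.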

How the data were processed

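RNA was from 4-week-old plants. Libraries were depleted of rRNA and sequenced as paired ends. The authors trimmed the first 12 bases, removed rRNA reads with Bowtie and aligned to TAIR10 with HISAT2. For RNA-seq 2 they deposited counts per gene (StringTie). For RNA-seq 1 they deposited estimated counts and TPM per transcript; the processing notes name Salmon, with no version. The estimated counts were summed per gene and rounded, and the deposited TPM values served an alternative only. Small RNA libraries were not analysed here.

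Counts were tested with edgeR 4.0.16 in R 4.3.3 (quasi-likelihood test, TMM, low-count filter, Benjamini-Hochberg over all genes, threshold 0.05, two-sided). RNA-seq 2 was 1 fit of 12 libraries. DESeq2 1.42.0 and limma 3.58.1 were alternatives, as were other size factors, no filter, each library left out, a replicate block, the 2 genotypes alone and summed repeat copies. A depth-class term, within-class differences and a denominator without psbA were chosen after seeing the data. Single values used exact permutation tests. Ratios per pair used a pseudocount of 0.5. Scripts were tested on simulated data.

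Samples with the same number deviated together over all genes in WT and hen2-2 (correlations 0.607, 0.349 and 0.688 in RNA-seq 1, and 0.497, 0.32 and 0.279 in RNA-seq 2). Those of se-2 and the double mutant gave 0.532, 0.127 and 0.209. These pairs were therefore used for the ratios per pair, and the block was read as an alternative. The main edgeR tests and the exact permutation tests did not use the pairing. Over the chloroplast genes alone the same pairs gave 0.319 to 0.808, -0.0125 to 0.773 and -0.125 to 0.877. The labels call the samples biological replicates. The members and lists were chosen with earlier results of these data known. Genes named in full were all rRNA genes, a representative of each functional group, up to 4 called genes per comparison, scale and direction, and those with the highest or lowest level per length or the largest spread; other names were chosen after their values were seen, and some called genes are not reported here. Of 39 nuclear symbols, 35 were found at the listed identifier.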

Additional observations from a re-analysis of the deposited data

Results flagged for a closer look

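In RNA-seq 2 the log2 ratio of hen2-2 over WT was above 0 in all 3 pairs of libraries and that of se-2 hen2-2 over se-2 below 0 in all 3 pairs, on the library scale, for 8 of the genes named in full. The mean of the second ratio minus the mean of the first was -0.30 for petB, -0.64 for rpoB, -0.36 and -0.23 for the rpl2 copies ATCG00830 and ATCG01310, -0.31 for rps12, -0.37 for accD, -0.75 for ycf1 (ATCG01130) and -0.41 for rps16. Over all genes tested, 19.4% were higher in all 3 pairs of hen2-2 and WT. In all 3 pairs of se-2 hen2-2 and se-2, 18.8% of all genes were lower. Of the 88 chloroplast protein genes it was 58 and 53. How many of all genes met both conditions was not counted, and the 8 come from a picked list. For this opposite pattern of pairs the difference was not tested. The interaction contrast of the edgeR fit called 0 of the 133 genes (22 at an unadjusted p under 0.05, 4 by DESeq2).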

How the results depend on the processing

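Of the counts of called chloroplast genes under an alternative, 151 stayed within 1.5 times the count given in the report and 52 did not. Scaled by library totals only, se-2 hen2-2 had 8 calls against WT, 2 against se-2 and 0 against hen2-2; this scaling moved the median of all genes by 0.17 in se-2 as compared to WT and by -0.15 in the double mutant as compared to se-2. DESeq2 called more on the library scale, 2 in RNA-seq 1, 4 in se-2, and 35, 13 and 42 for the double mutant against WT, se-2 and hen2-2, and 4 for the interaction, and on the within-chloroplast scale 1 in RNA-seq 1 and 4 and 1 for the double mutant against WT and se-2. Fitted to the 2 genotypes alone, se-2 hen2-2 had 1 call against WT and 0 against hen2-2, and 0 against WT within the chloroplast.

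With the replicate block the library scale gave 42 calls in RNA-seq 1, 6 in se-2 as compared to WT, 51, 14 and 55 for the double mutant against WT, se-2 and hen2-2, and 1 for the interaction. The within-chloroplast scale gave 29, 1, 18, 22 and 12. Same-numbered libraries of WT or hen2-2 and of se-2 or se-2 hen2-2 correlated over all genes at 0.382 to 0.52 in replicate 1. They correlated at 0.00648 to 0.0272 in replicate 2 and at 0.144 to 0.19 in replicate 3. The numbers thus pair these genotypes unevenly, and their blocked counts are given as an alternative only. The block changed no call in hen2-2 as compared to WT of RNA-seq 2.

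With a term for depth class, chosen after seeing the data, 1 gene passed in se-2 as compared to WT, and 34, 9 and 41 for the double mutant against WT, se-2 and hen2-2 on the library scale, and 33, 23 and 19 within the chloroplast. TMM over the chloroplast protein genes, without the depth term, gave 13 (11 higher, 2 lower), 1 and 6 (all higher) within-chloroplast calls in these 3 comparisons. The calls on this scale thus depended on the denominator as well as on the depth term. Leaving psbA out of the denominator, also chosen after seeing the data, gave 1 call against hen2-2.

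Leaving out single libraries gave 4 to 11 calls in se-2 hen2-2 against WT, 1 to 2 against se-2, 0 to 9 against hen2-2, and 0 to 1 within the chloroplast against WT. The differences in chloroplast share had no call. In 3 comparisons their sign changed with single libraries: -1.38 to 0.533 points in RNA-seq 1, -3.36 to 7.09 in hen2-2 as compared to WT of RNA-seq 2, and -4.70 to 6.82 in the double mutant as compared to se-2. Against WT it stayed negative in se-2 (-12.8 to -2.77) and the double mutant (-11.6 to -1.52), as it did for the double mutant against hen2-2 (-14.2 to -4.35). For the rRNA share the sign-changing comparisons gave -4.46 to 0.135, -3.52 to 2.94 and -2.64 to 4.18 points, for protein counts per nuclear count -0.0488 to 0.273 (hen2-2, RNA-seq 2) and -0.131 to 0.177 (se-2 hen2-2 against se-2), and for tRNA counts per 1000 protein counts -0.433 to 0.728 and -0.224 to 0.671. With 23S left out, the chloroplast share in RNA-seq 1 differed by 1.80 points. With the depth term the se-2 hen2-2 differences to WT were 0.497 points for the chloroplast share, 0.583 points for the rRNA share and 0.00298 for protein per nuclear count. The cause of these changes was not tested beyond the settings named. Of the named genes' calls under these alternatives 123 held, and 40 lost significance with the same sign. With 3 libraries per genotype, 2 depth classes and gene copies that cannot be separated, small differences are out of reach of these data.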
